A study of Homo sapiens with 36 samples.

Results

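The EGR, NR4A and IER genes are immediate early genes, and the 10 members described here are *EGR1*, *EGR2*, *EGR3*, *EGR4*, *NR4A1*, *NR4A2*, *NR4A3*, *IER2*, *IER3* and *IER5*. They were chosen by family and found by symbol among the 61587 genes of the count table, and all 10 were present. The cells were HEK293T, a human embryonic kidney line, with a *TXNL1* knockout (KO), and they carried an empty vector or a lentiviral construct for WT, DR-RD or SxxS TXNL1. TXNL1 is a thioredoxin-like protein that binds the proteasome. DR-RD reverses the charge of a pair of residues at the proteasome interface, and SxxS has serines in place of the cysteines of the thioredoxin active site. Each line received DMSO, 100 µM arsenite or 600 µM H2O2 for 6 h, with 3 libraries per group and 36 in all. Every group shares the *TXNL1* knockout, which was isolated by sorting single cells, and the constructs were driven by a CMV promoter. No parental HEK293T library was analysed here, so traits of a clone and of the knockout cannot be told apart. Treatments were made in triplicate, and the sources used here do not say whether replicates came from separate experiments, so that p-values measure the spread between these samples, which may be technical.

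Immediate early genes are transcribed within minutes of a growth factor, a neuronal signal or a stress, without new protein synthesis, and many of their messenger RNAs are short-lived. MAP kinases activate them largely through SRF, which binds CArG boxes together with ELK factors, and through CREB, which binds cyclic AMP response elements. The EGR proteins are zinc finger transcription factors that bind a GC-rich site and are restrained by the NAB corepressors. The NR4A proteins are orphan nuclear receptors whose activity follows their amount rather than a known natural ligand, and some of them pair with RXR receptors. The IER genes share a name from their early induction and not 1 protein family. *IER2* and *IER5* encode related nuclear proteins, and *IER3* encodes a small protein tied to cell survival.

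The promoters of 4 members are shown as examples that differ in the elements just named, and they were picked with the responses of their transcripts known. The windows are RefSeq sequence (GRCh38.p14) and end at the base before the annotated start of transcription, or at the last base before an annotated exon. They are chr5:138465229-138465478 (plus strand) for *EGR1*, chr10:62816374-62816616 (minus strand) for *EGR2*, chr9:99821635-99821854 (plus strand) for *NR4A3* and chr1:181088450-181088699 (plus strand) for *IER5*. Capitals mark CArG boxes and the CRE core TGACG, which reads CGTCA where it lies on the other strand. The *IER5* window, with neither element, overlaps an exon of an antisense long noncoding RNA by 90 bases.
EGR1: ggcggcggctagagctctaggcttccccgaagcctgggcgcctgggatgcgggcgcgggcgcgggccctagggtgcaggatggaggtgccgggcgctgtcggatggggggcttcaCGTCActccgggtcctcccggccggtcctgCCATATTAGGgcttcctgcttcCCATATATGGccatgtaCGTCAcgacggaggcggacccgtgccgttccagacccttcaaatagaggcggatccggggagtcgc
EGR2: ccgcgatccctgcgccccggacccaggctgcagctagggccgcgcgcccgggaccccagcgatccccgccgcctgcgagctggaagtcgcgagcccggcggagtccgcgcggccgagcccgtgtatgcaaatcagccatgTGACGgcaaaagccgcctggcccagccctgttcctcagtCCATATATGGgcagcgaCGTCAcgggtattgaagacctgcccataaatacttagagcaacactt
NR4A3: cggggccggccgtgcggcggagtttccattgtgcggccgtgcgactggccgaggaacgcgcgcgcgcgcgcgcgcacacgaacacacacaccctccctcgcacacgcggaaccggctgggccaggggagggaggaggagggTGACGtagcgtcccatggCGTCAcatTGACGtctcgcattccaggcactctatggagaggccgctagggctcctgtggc
IER5: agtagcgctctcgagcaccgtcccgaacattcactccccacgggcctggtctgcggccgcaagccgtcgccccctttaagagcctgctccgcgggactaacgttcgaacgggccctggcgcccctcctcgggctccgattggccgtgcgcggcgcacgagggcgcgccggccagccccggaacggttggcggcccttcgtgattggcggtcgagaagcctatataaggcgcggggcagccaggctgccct
Both strands were searched over the 250 bases before each start. The *EGR1* window held 2 CArG boxes, at -105 to -96 and at -83 to -74 from the start, and the *EGR2* window printed held 1. At least 1 CArG box lay in 1.17% of 34788 promoter windows of that length and at least 2 in 0.0316%. The CRE core was found 4 times in the untrimmed *NR4A3* window. It was found 2 times each in the *EGR1*, *EGR4* and printed *EGR2* windows, 1 time in the *IER2* window and in neither the *IER5* nor the *NR4A1* windows. The other *EGR2* windows, at other annotated starts, held neither a CArG box nor a CRE core. For comparison, 21.2% of all windows held at least 1 CRE core, 4.73% at least 2 and 0.239% at least 4. The *IER5* window held 1 match to GAANNTTC, a pattern of the heat shock element, as did 5.8% of all windows. The table of promoters matched 7 of the 10 members and did not hold *EGR3*, *NR4A2* or *IER3*. In the *EGR4* window 153 of the 250 bases lay in annotated exons, and only 97 came before the gene's own first exon base. In the *IER2* window 223 bases lay in exons of other genes. The search of these windows thus covered mostly exon sequence. No CArG box was found in the windows of *EGR4*, *IER2* or *NR4A1*, and only exact matches were searched for. The *NR4A1* windows were chr12:52022582-52022831 and chr12:52037465-52037714, of a gene that runs to 52059507. Starts further along that gene were not searched. Whether the matches bear on the responses to arsenite was not tested. These matches describe the letters of the windows and say nothing of binding in these cells.

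The libraries held 42072410 to 174119002 counts, with medians of 60713488 in DMSO, 60594904 in H2O2 and 82188010 in arsenite. Levels are in CPM, read counts scaled to a common library size corrected for composition. *TXNL1*, the targeted gene, stood at 30.6 ± 1.77 CPM in vector cells and at 53.4 to 62.9 CPM (group means) in the complemented lines in DMSO, and at 69.3 ± 2.19 CPM in vector cells in arsenite (SD, n = 3). Its counts do not separate the edited gene from the constructs, so that they do not check the knockout itself. Of the HEK293 markers, *VIM* stood at 445.0 to 669.6 CPM and *INA* at 12.1 to 27.2 CPM over the libraries, *NEFL* at 0.575 to 3.12 CPM and *NEFM* at most at 0.296 CPM. The markers *PTPRC*, *PECAM1*, *ALB* and *MYH7* of other cell types reached at most 0.299 CPM, and the fibroblast marker *DCN* stood at 0.102 to 1.02 CPM. WT arsenite replicate 1 and WT H2O2 replicate 2 stood apart, with an SD of 0.546 and 0.624 around their group medians (log2 scale, 15674 genes), against 0.0821 to 0.193 in the other libraries.

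In arsenite the members split by direction, and the split was the same in all 4 lines. Averaged over the lines, 8 of the 9 members tested were called at an adjusted p under 0.05, 5 higher (*EGR1*, *EGR2*, *EGR3*, *NR4A1* and *IER2*) and 3 lower (*NR4A2*, *IER3* and *IER5*). *NR4A3* was not called, and *EGR4* was too low in DMSO to pass the filter on counts. Arsenite moved most of the transcriptome, since 68.8% of the 22486 genes tested were called, 37.4% higher and 31.5% lower, so that the count of members called is by itself no result about them. Within the lines 8 of 9 members were called as well, in the same directions, where 43.4% of all genes were called in vector cells (22.1% higher, 21.4% lower), 53.6% in WT cells (28.7% and 24.9%), 44% in DR-RD cells (22.5% and 21.5%) and 43.6% in SxxS cells (22.1% and 21.5%). The median log2 fold change was 0.87 over the 9 members and 0.06 over all genes tested. *EGR1* ranked 2 of 22486 from the highest, *EGR3* 100 and *IER2* 640, while *IER5* ranked 133 from the lowest. These ranks are among the genes kept by the filter, which left out 20240 genes with counts, *EGR4* among them. In bulk RNA a change in the number of responding cells and a change per cell cannot be told apart.

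**Figure D1:**
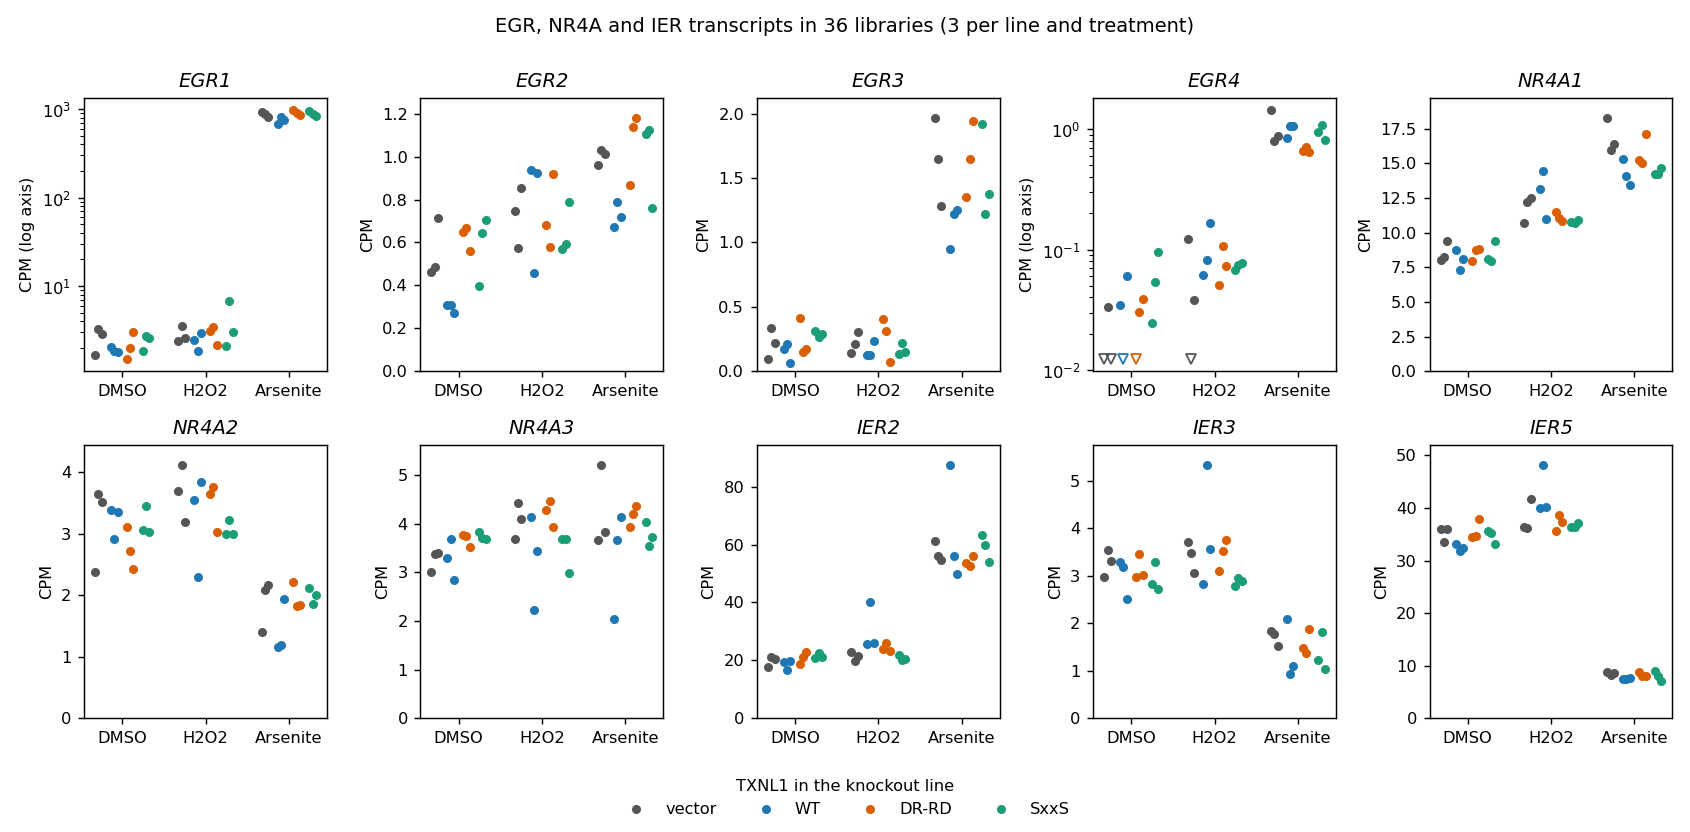
Level of each of the 10 transcripts in every library (y axis, CPM, linear from 0 except for *EGR1* and *EGR4*, whose axes are logarithmic), by treatment (x axis) and line (colour), with 1 point per library and open triangles for libraries with 0 counts. All 12 arsenite libraries lie above all 12 DMSO libraries for *EGR1*, *EGR3*, *EGR4*, *NR4A1* and *IER2*, and below them for *NR4A2*, *IER3* and *IER5*. The share of all genes separated in this way was not counted.

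*EGR1*, the best known of the EGR factors, had the largest change. In DMSO it stood at 1.65, 3.24 and 2.86 CPM in vector cells, at 2.05, 1.85 and 1.82 in WT cells, at 1.5, 2.01 and 2.99 in DR-RD cells and at 1.84, 2.69 and 2.57 in SxxS cells. In arsenite it stood at 914, 887 and 810 CPM in vector cells, at 681, 823 and 761 in WT cells, at 972, 896 and 862 in DR-RD cells and at 944, 867 and 824 in SxxS cells. No arsenite library came near a DMSO library. The fold change averaged over the lines was 382 (log2 8.58, SE 0.17, adjusted p = 6.3e-27), and within the lines it ran from 337 in vector cells to 429 in DR-RD cells (log2 8.40 and 8.74, SE 0.33 and 0.34).

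The other EGR transcripts rose from much lower levels. *EGR3*, which lies on chromosome 8 and acts with *EGR1* in neurons and lymphocytes, had a lowest, median and highest level of 0.0606, 0.217 and 0.415 CPM in DMSO and of 0.948, 1.36 and 1.97 CPM in arsenite. The groups did not overlap, and the fold was 6.63 (log2 2.73, SE 0.20, adjusted p = 5.2e-13). *EGR2*, a regulator of myelination and of hindbrain patterning, stood at 0.273, 0.523 and 0.716 CPM in DMSO and at 0.673, 0.987 and 1.18 CPM in arsenite, again lowest, median and highest. Of its arsenite libraries, 11 of 12 lay above the highest DMSO library, and within each line the groups did not overlap. Its fold was 1.90 (log2 0.92, SE 0.13, adjusted p = 1.9e-07). How many of all genes were separated to the degree of *EGR3* or *EGR2* was not counted.

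*EGR4*, a family member best known from neurons and the testis, was barely detected without arsenite. It had 2, 6, 4 and 12 counts in DMSO in all, summed over the 3 libraries of the vector, WT, DR-RD and SxxS cells, and 269, 271, 144 and 242 counts in arsenite. Over the lines that is 24 against 926 counts, a ratio of 28.1 per scaled library size, with a 95% interval from 15.9 to 54.7. This exact interval was set on halved counts, since both mates of a read pair may have been counted, and covers counting error. With no filter on low counts, edgeR gave a log2 fold change of 4.97 (SE 0.28, adjusted p = 1.0e-20). In H2O2 it had 66 counts, a ratio of 2.54 with an interval from 1.28 to 5.41. There the edgeR fit with no filter gave a log2 fold change of 1.47 averaged over the lines (SE 0.40, adjusted p = 0.021). That fit called it in H2O2 in no single line.

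*NR4A1* and *NR4A2* encode close relatives, the receptors NUR77 and NURR1, and went opposite ways in arsenite. *NR4A1* stood at 7.29, 8.19 and 9.43 CPM in DMSO (lowest, median and highest) and at 13.4, 15.1 and 18.3 CPM in arsenite, a fold of 1.82 (log2 0.87, SE 0.05, adjusted p = 3.3e-16). *NR4A2*, needed for dopamine neurons, stood at 2.37, 3.09 and 3.65 CPM in DMSO and at 1.16, 1.90 and 2.22 CPM in arsenite, and its log2 fold change was -0.77 (SE 0.10, adjusted p = 4.5e-08). For each of them the 12 arsenite libraries were separated from the 12 DMSO libraries. The share of all genes separated in this way was not counted. Among the lines, *NR4A2* ran from a log2 fold change of -0.50 (SE 0.19) in DR-RD cells to -1.17 (SE 0.20) in WT cells. *NR4A3*, which encodes NOR1, stood at 2.85, 3.60 and 3.82 CPM in DMSO and at 2.03, 3.88 and 5.20 CPM in arsenite, so that the groups overlapped. Its log2 fold change was 0.14 (SE 0.09, adjusted p = 0.19), or 0.20 with an adjusted p of 0.0039 without both WT libraries that stood apart. WT arsenite replicate 1, 1 of them, held its lowest arsenite level.

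The IER transcripts were split as well. *IER2* stood at 16.7, 20.6 and 23.0 CPM in DMSO and at 49.9, 55.9 and 87.5 CPM in arsenite, a fold of 2.90 (log2 1.54, SE 0.08, adjusted p = 4.3e-17). Its highest value was in WT arsenite replicate 1, 1 of the libraries that stood apart, beside 56.0 and 49.9 CPM in the same group. Leaving out both such libraries gave a log2 fold change of 1.44, so that the rise did not rest on them. *IER5*, whose protein recruits a phosphatase to HSF1, fell the most among the members.

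*IER5* stood at 35.9, 33.5 and 36 CPM in vector cells in DMSO, at 33.1, 31.8 and 32.3 in WT cells, at 34.4, 34.8 and 38.0 in DR-RD cells and at 35.7, 35.2 and 33.1 in SxxS cells. In arsenite it stood at 8.78, 8.27 and 8.68 CPM in vector cells, at 7.46, 7.50 and 7.65 in WT cells, at 8.80, 8.03 and 8.07 in DR-RD cells and at 8.92, 7.98 and 7.05 in SxxS cells. Every arsenite library was far below every DMSO library, and the log2 fold change ran from -2.04 in vector cells to -2.12 in SxxS cells (SE 0.08 in each). The average was -2.09 (SE 0.04, adjusted p = 2.2e-27), a 4.26-fold fall. *IER3* stood at 2.51, 3.09 and 3.55 CPM in DMSO and at 0.934, 1.5 and 2.10 CPM in arsenite, and its log2 fold change was -1.03 (SE 0.11, adjusted p = 3.7e-09). These groups did not overlap either. How many of all genes were separated like *IER5* and *IER3* was not counted. In WT cells the log2 fold change of *IER3* was -1.05, or -1.55 without both libraries that stood apart.

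**Figure D2:**
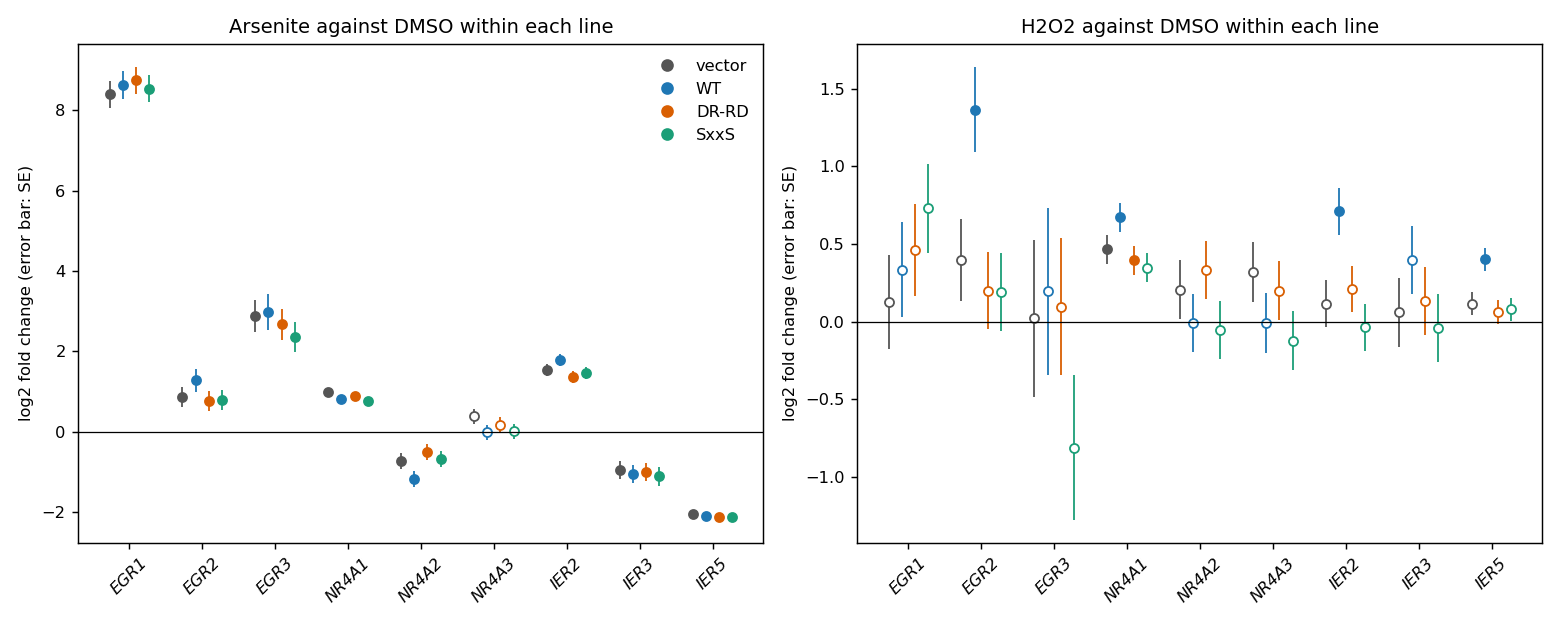
Log2 fold change of the 9 members tested (y axis, with SE as error bars) within each line (colour), for arsenite (left) and H2O2 (right, on its own scale). Filled points passed an adjusted p of 0.05 and open points did not. In arsenite 8 members have filled points in all 4 lines, from 8.74 for *EGR1* to -2.12 for *IER5*, while in H2O2 the filled points are 4 in WT cells, 1 in vector cells and 1 in DR-RD cells.

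H2O2 moved fewer members, and by less. Averaged over the lines, 4 of 9 were called, all higher (*NR4A1*, *EGR2*, *IER2* and *IER5*), where 12.1% of all genes tested were called, 6.78% higher and 5.3% lower. The median log2 fold change was 0.16 over the 9 members and 0.00 over all genes. *NR4A1* had a lowest, median and highest level of 10.7, 11.0 and 14.5 CPM in H2O2, and it alone among the 10 members had all 12 H2O2 libraries above all 12 DMSO libraries. Its log2 fold change was 0.47 (SE 0.05, adjusted p = 2.5e-08). How many of all genes had H2O2 libraries so separated from DMSO was not counted. *EGR2* changed by 0.54 (SE 0.13, adjusted p = 0.0052), *IER2* by 0.25 (SE 0.08, adjusted p = 0.026) and *IER5* by 0.16 (SE 0.04, adjusted p = 0.0028), all on the log2 scale. Without both libraries that stood apart *IER2* changed by 0.18 and *IER5* by 0.14, and both were still called (adjusted p of 0.00038 and 0.00060), where 28.6% of all genes were called. Averaged over the lines, *IER5* was thus higher in H2O2 and lower in arsenite. Among single lines, *EGR2*, *IER2* and *IER5* were called in H2O2 only in WT cells. In vector, DR-RD and SxxS cells *EGR2* changed by 0.40, 0.20 and 0.19 and *IER2* by 0.12, 0.21 and -0.04. *IER5* changed by 0.12, 0.06 and 0.08 in these lines.

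*EGR1* did not pass in H2O2. Its libraries stood at 1.84, 2.75 and 6.81 CPM (lowest, median and highest), with a log2 fold change of 0.41 (SE 0.15, adjusted p = 0.071). The highest value was in SxxS replicate 2, beside 2.12 and 3.03 CPM in the other SxxS libraries. *FOS*, another SRF target, was highest in the same library, at 2.36 CPM against 1.02 and 1.09 CPM. DESeq2 called *EGR1* in H2O2 with an adjusted p of 0.028. *EGR3*, *NR4A2*, *NR4A3* and *IER3* had log2 fold changes of -0.13 (SE 0.25), 0.12 (SE 0.09), 0.10 (SE 0.10) and 0.14 (SE 0.11) and were not called.

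Between the oxidants themselves, 8 of the 9 members differed, 5 higher and 3 lower in arsenite, as did 68.7% of all genes (37.3% higher and 31.3% lower). *EGR1* was higher in arsenite than in H2O2 by 8.17 on the log2 scale (SE 0.16), *EGR3* by 2.85 (SE 0.20) and *IER2* by 1.29 (SE 0.08). *NR4A1* and *EGR2* were also higher in arsenite, by 0.39 (SE 0.05) and 0.38 (SE 0.12). For *IER5* the log2 difference, arsenite minus H2O2, was -2.26 (SE 0.04), for *IER3* -1.16 (SE 0.11) and for *NR4A2* -0.89 (SE 0.10). *NR4A3* differed by 0.04 (SE 0.09, adjusted p = 0.69). The doses were not matched for effect and only 6 h was sampled, so that these values compare the exposures used. Earlier changes in either oxidant were not measured.

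Within single lines, H2O2 gave few calls among the members. In WT cells 4 of 9 were called, *EGR2* at 1.37 (SE 0.28, adjusted p = 0.0024), *IER2* at 0.71 (SE 0.15, adjusted p = 0.0036), *NR4A1* at 0.67 (SE 0.09, adjusted p = 4.2e-05) and *IER5* at 0.40 (SE 0.07, adjusted p = 0.0011), where 8.06% of all genes were called (5.8% higher). In vector cells 1 was called, *NR4A1* at 0.47 (SE 0.09, adjusted p = 0.0065), where 1.35% of all genes were called (0.712% higher). In DR-RD cells *NR4A1* was called too, at 0.40 (SE 0.09, adjusted p = 0.026), where 1.03% were called (0.503% higher). In SxxS cells 0 members were called by edgeR (2 at an unadjusted p under 0.05, and 1 by DESeq2), where 1.02% were called, and *NR4A1* stood at 0.35 (SE 0.09, adjusted p = 0.066). DESeq2 called 1.97% of all genes there. Without both libraries that stood apart, *NR4A1* passed in SxxS cells with an adjusted p of 0.0049, where 6.56% of all genes were called.

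Part of the WT values went with WT H2O2 replicate 2. *IER2* stood at 25.7, 40.0 and 25.9 CPM in WT cells in H2O2, *IER3* at 2.83, 5.33 and 3.56 CPM and *IER5* at 40.1, 48.2 and 40.2 CPM, each highest in replicate 2. *EGR2* was instead lowest there, at 0.939, 0.459 and 0.923 CPM, and so was *NR4A3*, at 4.13, 2.22 and 3.43 CPM. Without both libraries that stood apart the 4 members were still called in WT cells, with log2 fold changes of 1.64 for *EGR2*, 0.57 for *NR4A1*, 0.45 for *IER2* and 0.30 for *IER5*, where 8.98% of all genes were called. Without WT H2O2 replicate 2 alone 3 were called and *IER2* was not (0.46, adjusted p = 0.065), where 3.03% of all genes were called. Leaving out 1 WT library at a time gave 682 to 3819 genes called in all. A fit of the WT DMSO and H2O2 libraries alone called none of them and 1 gene in all.

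Whether the lines responded differently was tested with an interaction of line and oxidant. For arsenite 0 members were called, 0 had an unadjusted p under 0.05 and DESeq2 called 0, where edgeR called 0 of 22486 genes and DESeq2 35. For H2O2 0 members were called by edgeR or DESeq2 and 3 had an unadjusted p under 0.05, where edgeR called 0.685% of all genes and DESeq2 1.42%. These 3 were *IER2*, *IER5* and *EGR2*, with adjusted p of 0.31, 0.32 and 0.36. The calls in WT cells are thus not shown to differ from the other lines.

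*EGR2* had its lowest DMSO levels in WT cells, but with all libraries neither edgeR nor DESeq2 called this. It stood at 0.310, 0.309 and 0.273 CPM there (18, 13 and 18 counts), below every DMSO library of the vector (0.461, 0.487 and 0.716 CPM), DR-RD (0.648, 0.666 and 0.559 CPM) and SxxS cells (0.396, 0.643 and 0.707 CPM). The share of all genes so separated was not counted. Against vector cells the log2 difference of *EGR2* in WT cells was -0.90 (SE 0.29, adjusted p = 0.30). A test of any difference among the lines in DMSO gave an adjusted p of 0.34. It gave 0.046 without both libraries that stood apart, where 3.7% of all genes were called against 0.16% with them. Among the members, edgeR called 0 as different between the lines in DMSO (1 at an unadjusted p under 0.05), 0 in arsenite (1) and 0 in H2O2 (3), and DESeq2 also called 0 in each. Of all genes, edgeR called 0.16%, 0.867% and 0.151% in these tests and DESeq2 0.743%, 5.13% and 1.6%. Against vector cells in DMSO, 0 members were called in WT cells (1 at an unadjusted p under 0.05), 0 in DR-RD cells (0) and 0 in SxxS cells (0), and DESeq2 called 0 in each, where edgeR called 0.196%, 0.0267% and 0.0178% of all genes and DESeq2 0.623%, 0.0445% and 0.0578%. In H2O2 the *EGR2* group means were 0.774 ± 0.273 CPM in WT cells and 0.726 ± 0.141 CPM in vector cells (SD, n = 3).

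Compared per exon length, arsenite reordered the members. The deposited length equals that of all annotated exons of the gene joined, for every member but *NR4A2*. The order between members thus depends on the annotation, and which transcripts were expressed was not determined. In DMSO *IER5* had the highest median level at 8.23 CPM per kb, and its range of 7.57 to 9.03 lay above that of *IER2*, at 6.68 (5.43 to 7.46). *IER3* followed at 2.29 CPM per kb, with a range clear of the others. *NR4A1* at 1.12 (1.00 to 1.29) lay above *NR4A2* but overlapped *EGR1*. *NR4A2* at 0.779 (0.598 to 0.920), *EGR1* at 0.647 (0.479 to 1.03) and *NR4A3* at 0.571 (0.451 to 0.605) overlapped, so that their order was not beyond the spread. *EGR2* at 0.141, *EGR3* at 0.0431 and *EGR4* at 0.0135 CPM per kb were the lowest, and the ranges of *EGR3* overlapped those of both others. The order in H2O2 was the same but for *EGR1* at 0.877 CPM per kb (0.585 to 2.17), which stood just above *NR4A2* at 0.854 (0.579 to 1.04) and overlapped it.

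In arsenite *EGR1* led at 275.6 CPM per kb (217.1 to 309.9), ahead of *IER2* at 18.2 (16.2 to 28.4). *NR4A1* at 2.08 (1.84 to 2.51) and *IER5* at 1.92 (1.68 to 2.12) overlapped, and *IER3* followed at 1.11 CPM per kb. *NR4A3*, *NR4A2* and *EGR4* stood at 0.615, 0.480 and 0.363 CPM per kb, and *EGR3* and *EGR2* at 0.271 and 0.266, all with ranges that overlapped those of their neighbours. The CPM of all 10 members summed to 68.0 to 82.4 in DMSO, 81.4 to 115.0 in H2O2 and 799 to 1060 in arsenite. *EGR1* made up a median of 2.75% of that sum in DMSO, 3.02% in H2O2 and 90.4% in arsenite.

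**Figure D3:**
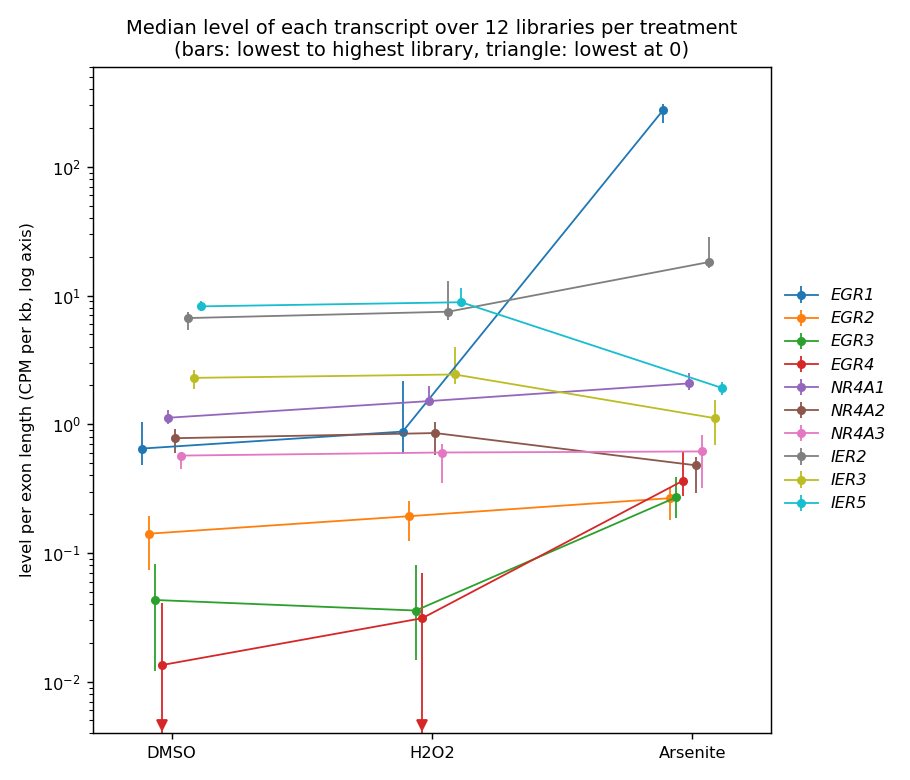
Median level per exon length (y axis, CPM per kb, logarithmic) of the 10 transcripts in each treatment (x axis), over 12 libraries, with bars from the lowest to the highest library and triangles where the lowest is 0. *EGR1* moves from 0.647 to 275.6 CPM per kb between DMSO and arsenite, while *IER5* moves from 8.23 to 1.92.

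Some counts cannot be told apart from those of overlapping genes. For antisense genes this is because the use of strand in counting is not given in the sources used here. *EGR1* (chr5:138465479-138469303, plus strand), *IER5* (chr1:181088700-181092900, plus strand), *EGR4*, *NR4A2* and *NR4A3* share no exon with another gene. *IER2* (chr19:13150411-13154911, plus strand) shares 946 bases with an antisense gene (ENSG00000267598) that had 4395 counts in DMSO and 19374 in arsenite, over 12 libraries each, beside 15410 and 63064 for *IER2*. *NR4A1* (chr12:52022832-52059507, plus strand) shares 754 bases with *NR4A1AS*, which had 1430 counts in DMSO and 4091 in arsenite beside 6360 and 15951 for *NR4A1*. A further antisense gene (ENSG00000287296) shares 662 bases with *IER2* and had 1389 counts in DMSO and 876 in arsenite. *IER3* shares 440 bases with *IER3-AS1*, which had 1062 counts in DMSO and 1175 in arsenite beside 2337 and 1637 for *IER3*. *EGR3* shares 164 bases with an antisense gene. *EGR2* shares 145 bases with a gene on its own strand, which counting by strand would not separate. The counts in this paragraph are raw totals, not scaled for depth. The arsenite libraries were deeper, with a median of 82188010 counts against 60713488 in DMSO, so that the totals overstate rises and understate falls. The part of these overlaps in the results was not tested. All positions are from GENCODE release 44 on GRCh38.

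The pattern of each member over 8 values, the log2 fold changes in arsenite and H2O2 in the 4 lines, was set against 12707 protein-coding genes with a mean of at least 1 CPM. The gene nearest to *EGR1* was *FOS*, at a Euclidean distance of 1.25, followed by *HSPA6*, a heat shock protein gene (1.96), and *GCM1* (3.13). *PALM3*, *RCOR2* and *NFKB2* were nearest to *NR4A1* at 0.261, 0.287 and 0.334, and *NRARP*, *RNF227* and *RGMA* to *IER5* at 0.287, 0.302 and 0.326. For *IER2* these were *PRELID3A*, *HES7* and *BANP* (0.258, 0.433 and 0.455), and for *IER3* *ZFP41*, *EFNB1* and *CHST14* (0.179, 0.245 and 0.277). *NOL3*, *MT1F* and *LRRC46* were nearest to *EGR2* (0.575, 0.636 and 0.692), *AGAP4*, *DDR2* and *ACTN2* to *EGR3* (0.849, 0.967 and 0.997), *UBN2*, *SETD1B* and *PSD3* to *NR4A2* (0.237, 0.257 and 0.259) and *DOCK8*, *MVB12B* and *RORB* to *NR4A3* (0.212, 0.263 and 0.263). The members themselves were left out of the search.

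The 30 other immediate early genes moved both ways in arsenite too. All 30 were called, 18 higher and 12 lower, and the counts of this and the following lists stand beside the 68.8% of all genes called in arsenite (37.4% higher, 31.5% lower) and the 12.1% called in H2O2. The median log2 fold change was 0.89. The largest rises were those of *FOS* at 8.19 (SE 0.12), *ATF3* at 4.42 (SE 0.03) and *FOSB* at 4.37 (SE 0.07), which encode transcription factors of the basic leucine zipper class. *FOS* went from a median of 0.696 CPM in DMSO to 214.4 CPM in arsenite. The largest falls were those of *MYC* at -2.76 (SE 0.03), *TRIB1* at -1.85 (SE 0.06) and *KLF6* at -1.64 (SE 0.07), so that *IER5* lay between *MYC* and *TRIB1*. In H2O2 18 of 30 were called, 17 higher, led by *FOS* at 0.82 (SE 0.13), *FOSL1* at 0.67 (SE 0.07) and *ARC* at 0.61 (SE 0.17), and 1 lower, *SIK1* at -0.45 (SE 0.12).

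**Figure D4:**
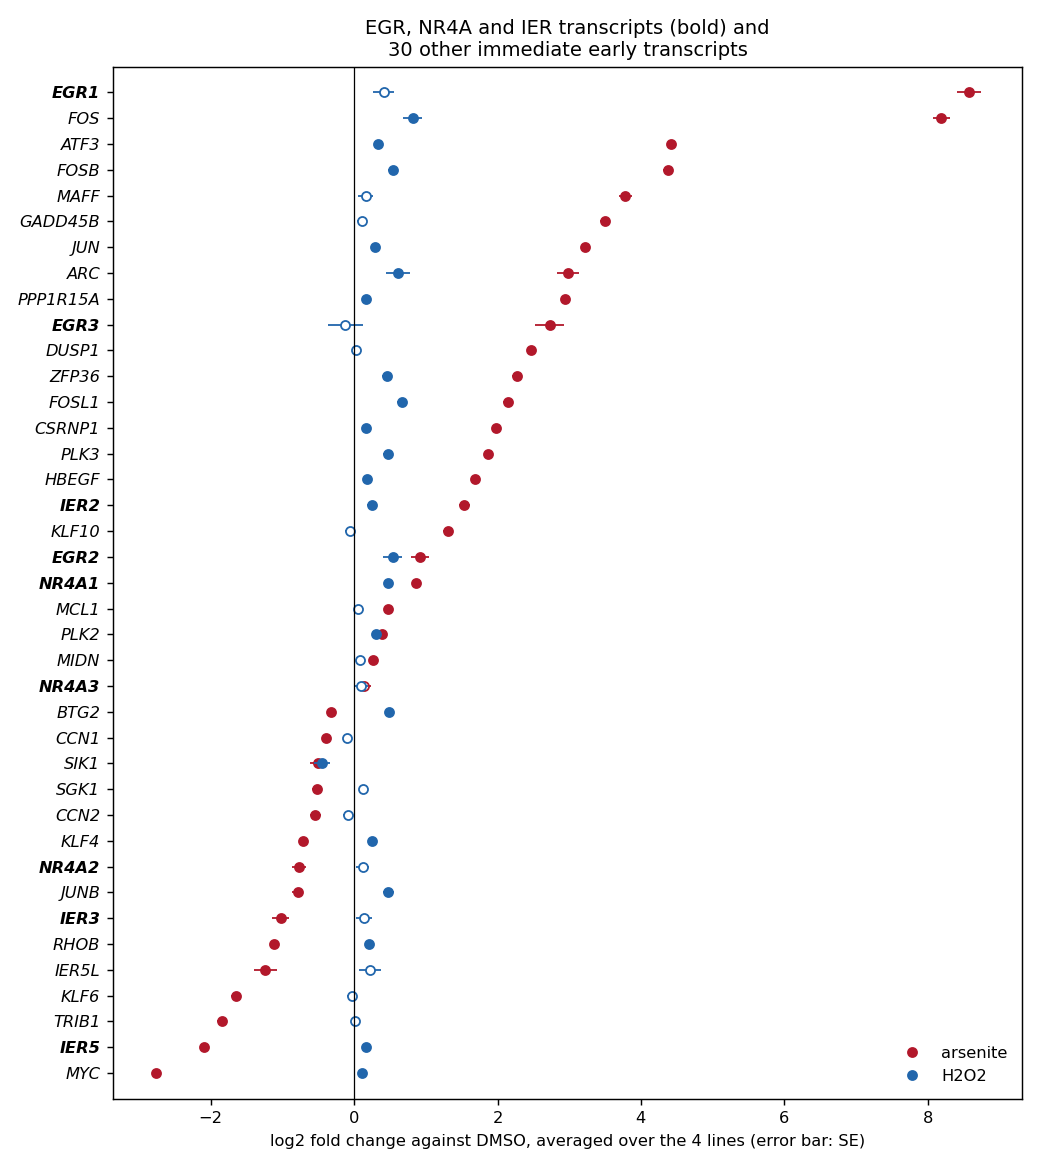
Log2 fold change against DMSO averaged over the 4 lines (x axis, with SE as error bars) of the 9 members tested (bold) and 30 other immediate early genes (y axis, ordered by arsenite), for arsenite (red) and H2O2 (blue), with filled points past an adjusted p of 0.05. *EGR1* at 8.58 and *FOS* at 8.19 are the highest in arsenite, and *MYC* at -2.76 and *IER5* at -2.09 are the lowest.

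Of 14 transcription factors that act on immediate early promoters, 12 were called in arsenite, 5 higher and 7 lower, with *MEF2D* at 0.71 (SE 0.04) and *CREM* at 0.52 (SE 0.05) among the rises and *MRTFB* at -1.31 (SE 0.14), *ELK1* at -1.05 (SE 0.04) and *ELK4* at -0.68 (SE 0.07), which act with SRF, the largest falls. In H2O2 1 of 14 was called, the SRF coactivator gene *MRTFA* at 0.10 (SE 0.03). Of 4 tested corepressors and partners of EGR and NR4A proteins, 3 were lower in arsenite, *RXRA* at -0.74 (SE 0.03), *NAB1* at -0.31 (SE 0.08) and *NAB2* at -0.14 (SE 0.05), and 1, *RXRA* at 0.12 (SE 0.03), was higher in H2O2. *RXRG* did not pass the filter.

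Among the kinases upstream, 14 of 17 MAP kinase cascade genes were called in arsenite, 6 higher and 8 lower, with *MAPK11* at 0.66 (SE 0.14) and *RPS6KA5* at 0.41 (SE 0.08) among the rises and *MAP2K3* at -0.58 (SE 0.04) among the falls. In H2O2 2 were called, both lower, *MAP2K6* at -0.23 (SE 0.05) and *MAPK9* at -0.12 (SE 0.03). Of 11 cytoskeletal targets of SRF and MRTF, 2 were higher in arsenite, *FHL2* at 0.55 (SE 0.04) and *TAGLN* at 0.20 (SE 0.08), and 6 lower, led by *FLNA* at -0.99 (SE 0.07) and *MYH9* at -0.65 (SE 0.06). In H2O2 3 of them were lower, led by *FLNA* at -0.41 (SE 0.07), and 0 higher.

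Genes of the decay of AU-rich messenger RNAs, a route by which many immediate early transcripts are removed, were called for 7 of 8 in arsenite. *ZFP36*, which encodes tristetraprolin and is itself an immediate early gene, rose by 2.28 (SE 0.07) and *ZFP36L1* by 0.28 (SE 0.05), while 5 fell, led by *ZFP36L2* at -0.36 (SE 0.05) and *CNOT7* at -0.36 (SE 0.04). In H2O2 1 was called, *ZFP36* at 0.46 (SE 0.07). Of 8 HSF1 targets, 5 were higher in arsenite, led by *BAG3* at 3.93 (SE 0.03), *DNAJB1* at 3.68 (SE 0.03) and *HSPH1* at 1.55 (SE 0.04), and 1 lower, *HSPA8* at -0.64 (SE 0.03). In H2O2 1 of them was higher, *HSPA1B* at 0.17 (SE 0.05), whose reads may be shared with its near-identical copy *HSPA1A*, and 1 lower, *DNAJB1* at -0.09 (SE 0.03). The HEK293 markers *NEFL* at -1.12 (SE 0.08) and *INA* at -0.35 (SE 0.06) were lower in arsenite, and in H2O2 *NEFL* at 0.31 (SE 0.07), *INA* at 0.29 (SE 0.06) and *VIM* at 0.20 (SE 0.04) were higher.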

How the data were processed

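Per the labels and the study's methods, total RNA of 36 samples was sequenced as paired-end, strand-specific messenger RNA libraries on the DNBseq platform. The authors used qAlign (QuasR) to align reads to GRCh38, primary assembly, and deposited 1 table of raw counts per gene, not normalized and not pooled, with a length per gene. The annotation release, the use of strand and whether both mates of a pair were counted are not given in the sources used here. Counts of 4 and 6 (31272 and 19214 times) were more frequent than counts of 3 and 5 (28087 and 17279), so halved counts were tried. Doses and exposure are from the methods. Groups and replicate numbers are from the labels. Every row named a gene, and 0 columns of values were left without a sample.

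Identifiers were matched to GENCODE release 44 (61415 of 61587). Genes with at least 10 counts in total over the 3 vector DMSO libraries, the filter of the study, were kept (22486). Counts were fitted with edgeR 4.0.16 (limma 3.58.1, R 4.3.3), TMM scaling, 1 mean per group over all 36 libraries and robust quasi-likelihood tests, with Benjamini-Hochberg adjustment over the genes tested. SE is the log2 fold change divided by the root of F. Levels are CPM on TMM-scaled sizes, per kb of the deposited length where genes are compared. Alternatives were DESeq2 1.42.0 and its size factors, library totals, filterByExpr (22277 genes), no filter, fits of the compared groups alone, the replicate number as a block, halved counts, each library left out, and the WT libraries that stood apart left out together. Same-numbered DMSO and H2O2 libraries of DR-RD cells deviated together (correlations of 0.306, 0.127 and 0.315), so that these numbers may pair them. In no other pairing of a line's DMSO libraries with either oxidant did all 3 correlations exceed 0.1. DR-RD DMSO replicate 2, however, correlated best with an H2O2 library of another number. Against arsenite all 3 DR-RD DMSO libraries correlated best with their own number, at 0.108, 0.0596 and 0.0483. The fits were tested on simulated data with a spread common to all genes and no library that stood apart. That test thus does not cover calls that depend on the WT libraries that stood apart. The depth of a library limits the lowest genes, and intervals cover counting error alone.

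The members and all gene lists were chosen with earlier results of these data known. Named genes are the members, of each list at most the 3 largest rises and 3 largest falls among called genes in each oxidant, and the 3 genes nearest to each member tested. *RXRG*, *HSPA1A* and the marker genes were named outside that rule. Promoter windows are from RefSeq.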

Additional observations from a re-analysis of the deposited data

How the results depend on the processing

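Over all alternatives, 0 log2 fold changes of a member against DMSO or between the oxidants that were called changed sign. For *EGR1*, *EGR2*, *EGR3*, *NR4A1*, *NR4A2*, *IER2*, *IER3* and *IER5* the arsenite call averaged over the lines held in all 33 alternative settings, as in the reported one. The number of members called in H2O2 moved by more than 1.5 times in single lines. Leaving out 1 library gave 0 to 1 member in vector cells (1 with all libraries), 0 in DR-RD cells (1), 0 to 1 in SxxS cells (0), 3 to 4 in WT cells (4) and 3 to 5 in the average (4), where 137 to 170, 124 to 157, 82 to 175, 682 to 3819 and 2408 to 3748 genes were called in all. In vector cells the call of *NR4A1* was lost without DMSO replicate 1, DMSO replicate 2 or H2O2 replicate 3 (adjusted p of 0.058, 0.050 and 0.055), and in DR-RD cells without any 1 of its 6 libraries (adjusted p from 0.059 to 0.16) and with no filter (0 members, adjusted p = 0.080). In SxxS cells *NR4A1* was called (1 member) by DESeq2, where 444 genes were called in all. Under library totals it was called too, where 107 genes were called higher and 146 lower. It was also called with the compared groups alone and without both WT libraries that stood apart, the latter with the share given above. The share of all genes is not given here for the compared groups alone in SxxS cells, nor for no filter in DR-RD cells. The WT groups alone gave 0 members in H2O2. In DMSO 1 member, *EGR2*, differed between the lines without both of those libraries. In H2O2 averaged over the lines, *IER2* lost its call without vector DMSO replicate 1, WT DMSO replicate 2 or DR-RD DMSO replicate 1 (adjusted p of 0.055, 0.053 and 0.054). In WT cells in H2O2, *IER2* stood at 0.46 with an adjusted p of 0.065 without H2O2 replicate 2. *NR4A2* in arsenite in DR-RD cells lost its call without DMSO replicate 1 or 2 or arsenite replicate 2 or 3 (adjusted p up to 0.16), and *EGR2* in arsenite in SxxS cells without DMSO replicate 1 (0.084). Other members gained a call. These were *NR4A3* in arsenite averaged over the lines without WT arsenite replicate 1 (adjusted p = 0.017) and in vector cells with the compared groups alone (0.012) or without both WT libraries that stood apart (0.0055), *EGR1* in H2O2 averaged over the lines without DR-RD DMSO replicate 3, WT H2O2 replicate 2 or SxxS H2O2 replicate 1 or 3 (0.018 to 0.050), and *NR4A1* in H2O2 in SxxS cells without DMSO replicate 3 (0.047). The cause was not tested.

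With the replicate number as a block, 8 members were called in arsenite in the average and in each line, 4 in H2O2 in the average, 1 in vector, 4 in WT, 1 in DR-RD and 0 in SxxS cells, where 68.3% of all genes were called in arsenite in the average, 42.7% in vector, 52.9% in WT, 43.4% in DR-RD and 42.8% in SxxS cells, and 11.8%, 1.22%, 7.19%, 1.07% and 0.969% in H2O2. Compared member by member, the block added 0 calls and removed 0 in these comparisons, and with it 0 members were called between the lines or in the interactions. Other scalings moved the median log2 fold change of all genes in arsenite from 0.06 to 0.04 (DESeq2's size factors) and 0.02 (library totals). Depth limits *EGR3* and *EGR4* most, with 177 and 24 counts over the 12 DMSO libraries.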
